A study of Mus musculus with 1 sample.

Results

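The genes described here are 9 subunits of the polycomb repressive complexes: Ezh1, Ezh2, Eed, Suz12, Jarid2, Bmi1, Rnf2, Cbx7 and Cbx8. They were chosen by name, and each matched 1 of the 32285 genes of the deposited matrix. They were measured in 1 library of lineage-negative, c-Kit-positive bone marrow cells by single-cell RNA-seq, a sorted fraction that holds blood stem cells and progenitors of the blood lineages. The mice were C57BL/6 with Brd9fl/fl alleles and without the Mx1-Cre deletion, so Brd9 was intact. They had received polyinosinic-polycytidylic acid (pIpC), an inducer of interferon, at 20 mg/kg in 3 doses, and cells were prepared 8 weeks later. The sample's labels name a CD45.2(+) donor and a CD45.1(+) CD45.2(-) recipient treated 4 weeks after transplant, whereas the series text speaks of primary mice, and which applies was not settled.

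Polycomb repressive complex 2 (PRC2) methylates lysine 27 of histone H3, a mark of silenced chromatin. Its catalytic subunit is either EZH2 or EZH1, held in place by the core subunits EED and SUZ12, and accessory subunits such as JARID2 direct the complex to its sites. Polycomb repressive complex 1 (PRC1) places ubiquitin on histone H2A through RING1 or RNF2 paired with a PCGF protein such as BMI1, and in its canonical form reads the PRC2 mark through a CBX protein. EZH2 is known as the form of dividing cells and EZH1 as the form of resting cells, and BMI1 is known for its need in the self-renewal of blood stem cells. The levels below address how these subunits were balanced in quiescent and cycling progenitors of control marrow.

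The library held 7645 cells after the study's filter, with 1592 to 49991 unique molecular identifiers (UMIs, each 1 captured transcript) per cell. Cells were sorted into gates by marker genes of a lineage, and by the summed UMIs of 26 S phase and 29 G2/M genes after each cell had been thinned to 5000 UMIs. Cells with at most 12 such UMIs are called the low range (1919 cells) and cells with at least 35 the high range (1890 cells). These are ranges of a score and not types: 725 cells lay within 2 UMIs of the lower limit and 618 within 2 UMIs of the upper one. RNA alone cannot separate G0 from G1, so low-range cells are not all quiescent. No member was a gate gene.

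By GENCODE M21 on GRCm38 all 9 members are protein-coding genes. Ezh1 lies on the minus strand at chr11:101191115-101226463 and Ezh2 on the minus strand at chr6:47530139-47595341. Suz12 and Cbx8 are also on chromosome 11, Eed is on 7, Jarid2 on 13, Bmi1 on 2, Rnf2 on 1 and Cbx7 on 15. Eed and Rnf2 each overlap 1 other gene model on the same strand (Gm45120 and Gm36527), so their counts could be shared with it.

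The stem-like gate, marked by genes such as Hlf, Mecom, Procr and Fgd5, held 905 cells, of which 705 fell in the low range and 67 in the high range. All 10 of its markers reached 10 UMIs per 1000000 UMIs (CPM) there, and the list summed to 1389 CPM against 97.6 CPM in the remaining cells. Of the genes linked to quiescence, some followed the ranges and some did not. Cdkn1c, the p57 cell-cycle inhibitor, stood at 65.8 CPM in low-range stem-like cells, at 40.4 CPM in high-range stem-like cells and at 0.656 CPM in the 1552 high-range cells of 8 progenitor gates. Mki67, a proliferation marker and itself a gate gene, stood at 19.7, 977 and 857 CPM in the same groups. Rb1, which restrains entry into S phase, was instead highest in the progenitors, at 48.2 CPM against 18.9 and 20.2 CPM. Kit, the receptor used for the sort, stood at 290 CPM in low-range stem-like cells and at 41.1 CPM in high-range progenitors. There was 1 library and thus no replicate, so differences were not tested. The intervals given are exact at 95% and take in counting error alone, leaving out any difference between mice, sorts or libraries.

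The groups also differed in depth. The median cell had 8197 UMIs in the low-range stem-like group, 16744 in the high-range stem-like group and 25749 in high-range progenitors, and median mitochondrial shares were 4.97%, 4.13% and 3.72%. In the median low-range stem-like cell the marker list of granulocyte-monocyte progenitors summed to 853 CPM, that of erythroid cells to 937 CPM, that of dendritic cells to 199 CPM and that of megakaryocytes to 119 CPM. The T or NK cell list stood at 58.4 CPM in that cell and the 8 remaining lists of other cell types at 0. The part of depth and of these transcripts in the results was not tested, except where a value is given beside a result.

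The catalytic subunits were nearly even in low-range stem-like cells and far apart elsewhere. In low-range stem-like cells 280 UMIs came from Ezh1 and 260 from Ezh2, so that Ezh1 made up 51.9% of both (interval 47.5 to 56.1). In high-range stem-like cells the counts were 27 and 225, a share of 10.7% (7.18 to 15.2). In high-range progenitors they were 350 and 9484, a share of 3.56% (3.20 to 3.94). The 3 intervals did not overlap. Because 3' counts give 1 UMI per molecule they were not divided by length, but capture may differ between the genes, so an even share does not show equal RNA amounts. Whether capture differed between the groups was not tested.

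Per UMI total, Ezh1 was lower and Ezh2 higher in the high range of the stem-like gate. Per cell, Ezh1 was about level, at 0.397 UMIs in the low range and 0.403 in the high range, and Ezh2 was at 0.369 and 3.36. Ezh1 stood at 45.3 CPM (40.1 to 50.9) in low-range stem-like cells, at 23.7 CPM (15.6 to 34.5) in high-range stem-like cells and at 8.51 CPM (7.64 to 9.45) in high-range progenitors. Ezh2 stood at 42.1 CPM (37.1 to 47.5), 198 CPM (173 to 225) and 231 CPM (226 to 235) in the same order. From the low to the high range of the stem-like gate, Ezh1 was 0.523 times as high (0.339 to 0.778) and Ezh2 was 4.70 times as high (3.91 to 5.64).

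The promoters of 4 members are shown because the 2 members that were higher in the high range of every gate compared, Ezh2 and Suz12, can be set beside Ezh1 and Cbx7, which were highest in stem-like cells. The windows run from 250 bases before to 50 bases after the RefSeq start of the gene on GRCm38.p6, written 5′ to 3′ on the gene's strand. Capitals mark matches to 4 E2F words, TTTGGCGC, TTTCGCGC, TTTCCCGC and TTTGCCGC, searched on both strands after the levels had been seen. E2F proteins are the factors that switch on genes of S phase. Ezh2 is on the minus strand at chr6:47594981-47595280, Suz12 on the plus strand at chr11:79992856-79993155, Ezh1 on the minus strand at chr11:101226414-101226713 and Cbx7 on the minus strand at chr15:79932597-79932896.
Ezh2: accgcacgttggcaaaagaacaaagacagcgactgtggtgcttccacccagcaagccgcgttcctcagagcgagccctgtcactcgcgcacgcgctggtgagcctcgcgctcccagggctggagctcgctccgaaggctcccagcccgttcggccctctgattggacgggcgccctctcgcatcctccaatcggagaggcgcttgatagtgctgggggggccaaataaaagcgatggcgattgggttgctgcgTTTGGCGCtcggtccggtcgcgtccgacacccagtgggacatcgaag
Suz12: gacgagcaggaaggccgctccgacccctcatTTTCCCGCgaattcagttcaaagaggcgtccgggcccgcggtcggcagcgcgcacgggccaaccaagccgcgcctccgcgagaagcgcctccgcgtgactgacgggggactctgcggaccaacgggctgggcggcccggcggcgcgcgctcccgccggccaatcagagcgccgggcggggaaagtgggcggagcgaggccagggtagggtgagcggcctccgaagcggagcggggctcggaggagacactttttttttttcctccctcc
Ezh1: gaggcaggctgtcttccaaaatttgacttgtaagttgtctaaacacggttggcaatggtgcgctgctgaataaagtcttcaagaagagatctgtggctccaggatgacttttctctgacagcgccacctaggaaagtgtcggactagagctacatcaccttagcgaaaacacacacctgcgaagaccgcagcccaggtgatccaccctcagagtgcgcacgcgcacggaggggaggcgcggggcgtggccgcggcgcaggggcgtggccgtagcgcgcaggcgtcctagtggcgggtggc
Cbx7: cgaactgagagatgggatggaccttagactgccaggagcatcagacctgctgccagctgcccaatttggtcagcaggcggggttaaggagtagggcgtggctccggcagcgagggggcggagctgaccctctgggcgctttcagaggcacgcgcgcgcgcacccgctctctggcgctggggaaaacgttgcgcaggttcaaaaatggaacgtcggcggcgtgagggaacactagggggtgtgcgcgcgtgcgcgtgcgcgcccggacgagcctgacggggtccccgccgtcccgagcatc

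The Ezh2 window held TTTGGCGC at bases 254 to 261 and the Suz12 window held TTTCCCGC at bases 32 to 39, neither overlapping the other motifs searched. No E2F word stood in the Ezh1 or Cbx7 window, nor in those of the other 5 members, so 2 of 10 member windows held one (Jarid2 has 2 windows). An E2F word was held by 2.26% of all 32851 windows. The word CCAAT, on either strand, occurred 3 times in the Ezh2 window, once each in the Suz12 and Cbx7 windows and not in the Ezh1 window, while 37.4% of all windows held it. The CHR word TTTGAA stood in the Suz12 and Cbx7 windows and in 17.9% of all windows. Of the 10 member windows 7 held CCAAT and 3 held the CHR word. A match is a description of the letters and not a bound site, and a missing word says nothing about the factor.

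**Figure D1:**
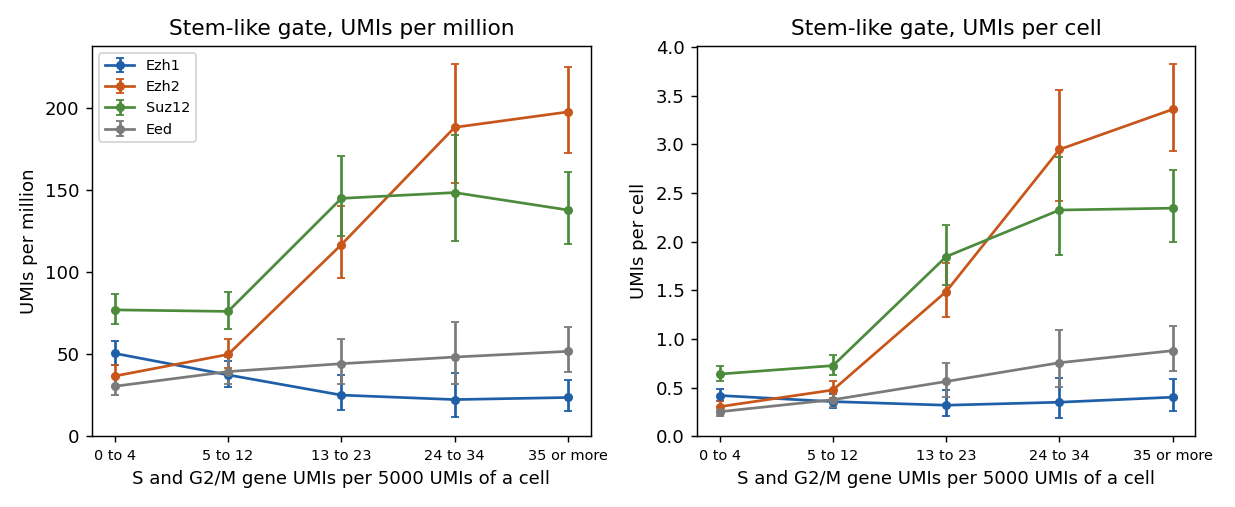
Levels of Ezh1, Ezh2, Suz12 and Eed in stem-like cells grouped by S and G2/M gene UMIs per 5000 UMIs of a cell, as CPM (left) and UMIs per cell (right), with exact 95% Poisson intervals as bars. Ezh2 climbs from 36.8 to 198 CPM across the 5 groups and Ezh1 goes from 50.6 to 23.7 CPM, while Ezh1 UMIs per cell stay between 0.321 and 0.420.

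The stem-like gate was then divided more finely along the cell-cycle score. Ezh1 made up 57.9% (52.3 to 63.3) of both genes in the 445 cells with 0 to 4 cycle UMIs and 42.9% (36.2 to 49.7) in the 260 cells with 5 to 12. The share was 17.7% (11.8 to 25.1) in 78 cells with 13 to 23, 10.7% (5.80 to 17.5) in 37 cells with 24 to 34 and 10.7% (7.18 to 15.2) in 67 cells with 35 or more. The last 3 intervals overlapped one another, and the first 2 lay above them.

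Counted per cell, Ezh1 moved less than Ezh2 in the stem-like gate. A cell gave 0.420, 0.358, 0.321, 0.351 and 0.403 Ezh1 UMIs on average across the 5 groups, whereas Ezh2 went from 0.306 to 3.36 UMIs per cell. The groups held 187, 93, 25, 13 and 27 Ezh1 UMIs. The median depth of a cell went from 7985 to 16744 UMIs over the same groups, and its part in the lower Ezh1 CPM of cycling stem-like cells was not tested. In high-range progenitors a cell gave 0.226 Ezh1 and 6.11 Ezh2 UMIs, and in their erythroid-like part 0.204 and 8.42. Suz12 followed Ezh2 in part, with 77.1, 76.1, 145, 148 and 138 CPM, and Eed stood at 30.6, 39.5, 44.3, 48.3 and 51.8 CPM.

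The share of Ezh1 also differed within the low range of the stem-like gate. It was 58.0% (51.5 to 64.3) in its 353 cells at or under the median depth and 46.8% (41.0 to 52.7) in the 352 deeper cells. Cells with at least 1 UMI of Vwf, a platelet-lineage gene that marks a subset of stem cells, had 59.7% (53.5 to 65.7; 316 cells) and those without had 44.4% (38.5 to 50.5; 389 cells). Median depth was 8628 UMIs in the former and 7887 in the latter. A single UMI can come from free RNA, and its part and that of depth in the difference were not tested. When only cells with at least 5000 UMIs and under 5% mitochondrial UMIs were kept, gates and ranges were set anew. The low-range share was then 39.9% (35.04 to 44.8).

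**Figure D2:**
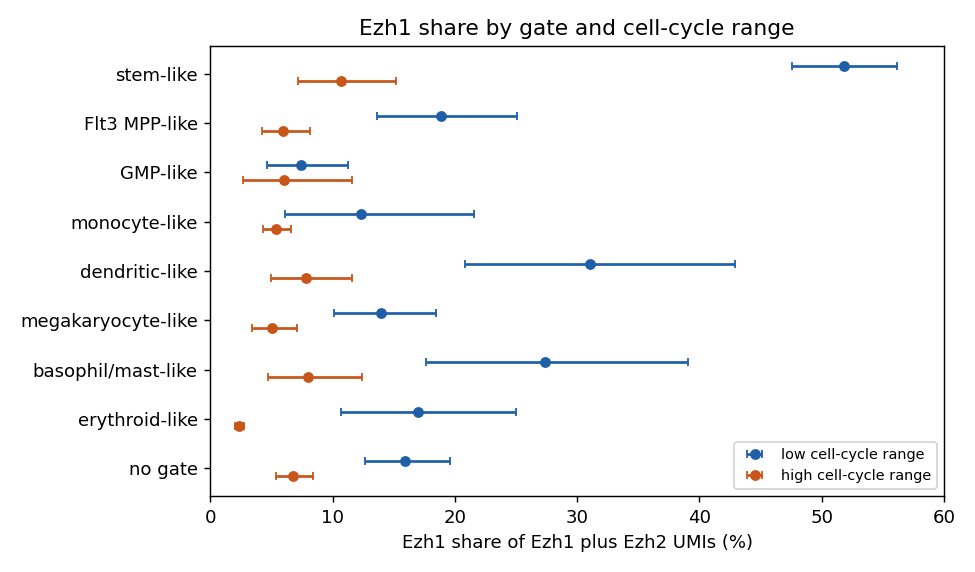
Share of Ezh1 among Ezh1 plus Ezh2 UMIs (percent, horizontal axis) in the low (blue) and high (orange) cell-cycle range of 9 gates, with exact 95% intervals as bars. The low-range stem-like point at 51.9% lies to the right of every other point, and the erythroid-like high range at 2.37% lies lowest.

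The share of Ezh1 was larger in the low than in the high range of each of the 9 gates compared, in 2 of them within counting error. In the dendritic-like gate it was 31.1% (20.8 to 42.9) against 7.80% (4.95 to 11.6), and in the basophil or mast cell-like gate 27.4% (17.6 to 39.1) against 7.94% (4.70 to 12.4). In the Flt3 multipotent progenitor-like gate, marked by Flt3, Satb1, Dntt and Notch1, it was 18.9% (13.7 to 25.1) against 5.96% (4.21 to 8.16). These pairs of intervals did not overlap, and the 3 low-range intervals overlapped one another.

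In the erythroid-like gate the share was 16.9% (10.7 to 24.96) in 49 low-range cells and 2.37% (2.01 to 2.77) in 744 high-range cells. In the megakaryocyte-like gate it was 13.9% (10.1 to 18.5) against 5.01% (3.38 to 7.11). In the monocyte-like gate it was 12.3% (6.08 to 21.5; 54 cells) against 5.38% (4.32 to 6.60; 362 cells), and in the granulocyte-monocyte progenitor-like gate 7.43% (4.60 to 11.2) against 6.06% (2.65 to 11.6). In these last 2 gates the intervals of the ranges overlapped. Cells in no gate had 15.9% (12.6 to 19.6) and 6.74% (5.34 to 8.38). The neutrophil-like gate had 8.75% (3.59 to 17.2) in 49 low-range cells and only 5 high-range cells, which are not compared.

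**Figure D3:**
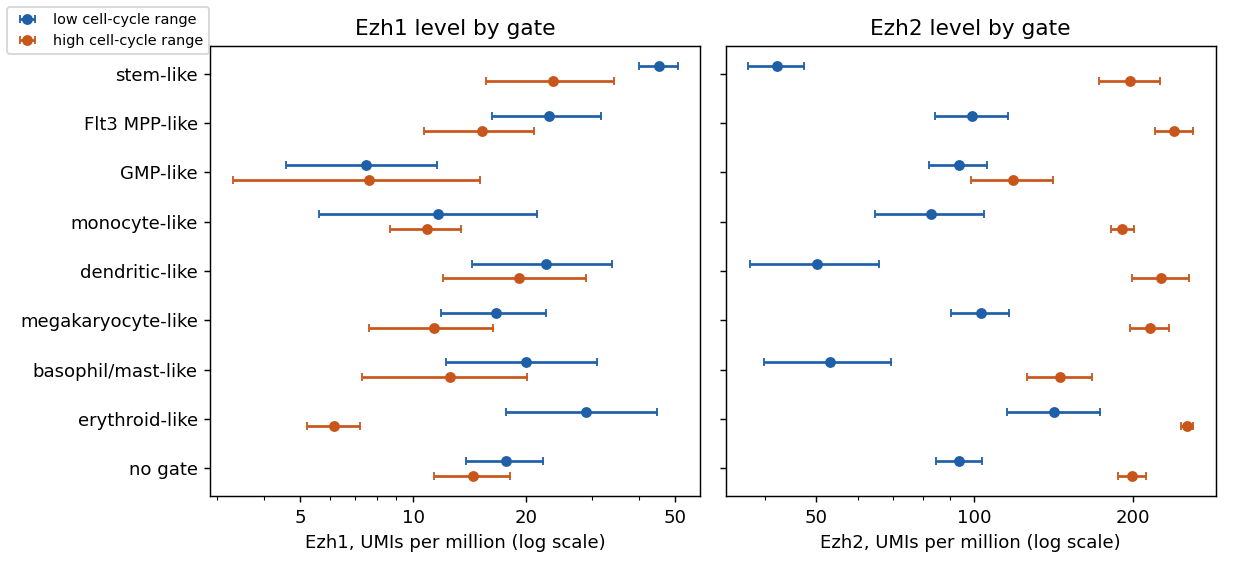
Ezh1 (left) and Ezh2 (right) in CPM (log axes) in the low (blue) and high (orange) cell-cycle range of 9 gates, with exact 95% Poisson intervals as bars. Ezh2 lies further right in the high range of every gate, and Ezh1 is highest in low-range stem-like cells at 45.3 CPM.

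Low Ezh2 in the low range was also found in other gates. Low-range Ezh2 stood at 42.1 CPM in stem-like, 50.2 CPM in dendritic-like and 53.0 CPM in basophil or mast cell-like cells, and these neighbours had overlapping intervals. It stood at 82.8 to 103 CPM in the low range of the monocyte-like, granulocyte-monocyte progenitor-like, Flt3 multipotent progenitor-like and megakaryocyte-like gates and of the cells in no gate, and at 142 CPM in the erythroid-like gate. Among gates with at least 30 cells in both ranges, low-range Ezh1 was highest in stem-like cells at 45.3 CPM. The erythroid-like gate was next at 29.0 CPM (17.7 to 44.8), followed by 23.1 CPM in the Flt3 multipotent progenitor-like gate and 22.6 CPM in the dendritic-like gate. The first 2 intervals overlapped.

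Over whole gates of at least 50 cells, Ezh1 ranged from 6.04 CPM in neutrophil-like to 38.9 CPM in stem-like cells, a 6.44-fold range over 12 gates, with dendritic-like cells next at 18.2 CPM. Ezh2 ranged from 79.4 CPM in stem-like to 242 CPM in erythroid-like cells, with Flt3 multipotent progenitor-like cells next highest at 180.1 CPM. Over whole gates, stem-like cells were thus highest of the 12 for Ezh1 and lowest for Ezh2, with 705 of their 905 cells in the low range. In the high range they were not lowest for Ezh2, at 198 CPM. Granulocyte-monocyte progenitor-like cells had 118 CPM there, basophil or mast cell-like cells 146 CPM and monocyte-like cells 191 CPM. The megakaryocyte-like, dendritic-like, Flt3 multipotent progenitor-like and erythroid-like gates had 216 to 254 CPM.

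**Figure D4:**
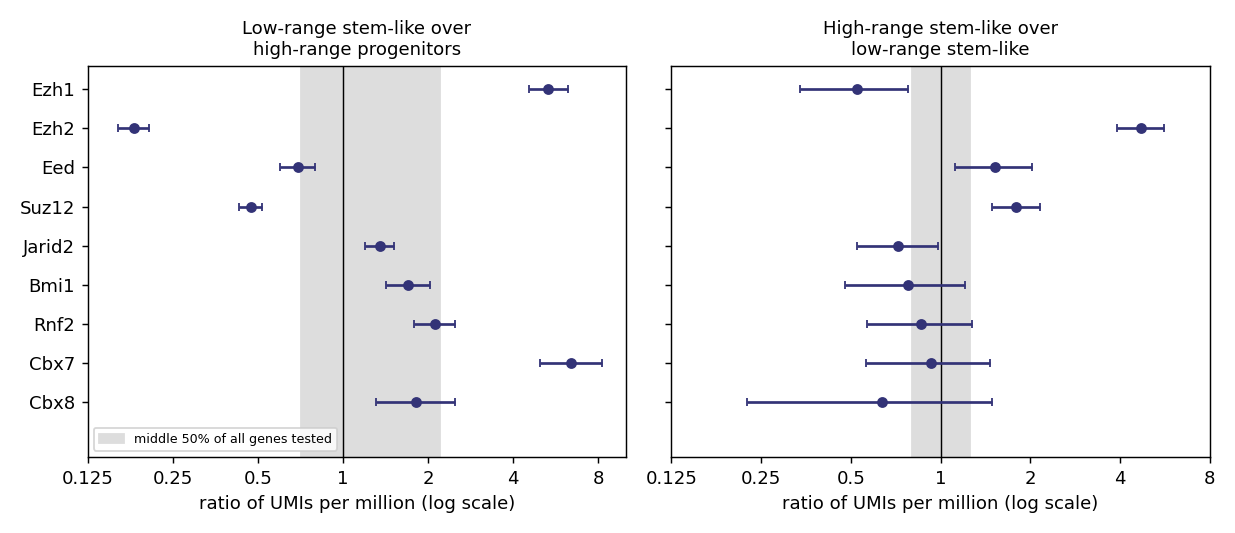
Ratio of CPM for each member (log axes) in low-range stem-like cells over high-range progenitors (left) and in high-range over low-range stem-like cells (right), with exact 95% intervals as bars and the middle 50% of all genes tested in grey. Ezh1 at 5.32 and Cbx7 at 6.41 lie to the right of the grey band on the left, Ezh2 at 0.182 and Suz12 at 0.472 to its left.

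Across all 9 members, low-range stem-like cells were set against high-range progenitors with a 1.5-fold difference as the size rule. Of the 9 members 5 were at least 1.5-fold higher (Ezh1, Cbx7, Rnf2, Cbx8 and Bmi1), where 39% of the 11928 genes with at least 50 UMIs were. At least 1.5-fold lower were 2 members (Ezh2 and Suz12), where 22.5% of all genes were. Eed and Jarid2 lay within 1.5-fold. All 9 members passed the 50-UMI filter, which counts both groups together. The median ratio was 1.70 over the members and 1.20 over all genes, and with 9 genes the counts say little beside those of genes at large, so each member's own ratio is given. Erythroid-like cells made up 744 of the 1552 progenitors, and without them 3 members were higher and 2 lower.

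Among the PRC2 core subunits, Suz12, which holds the complex together, followed Ezh2. Suz12 stood at 76.7 CPM in low-range stem-like cells and 162 CPM in high-range progenitors, a ratio of 0.472 (0.429 to 0.518). Eed, which binds the methyl mark and stimulates the enzyme, stood at 34.1 and 49.3 CPM, a ratio of 0.693 (0.598 to 0.798). Both intervals lay below 1, and that of Ezh2 (0.161 to 0.206) lay below both. Jarid2, which recruits PRC2 to chromatin, stood at 58.4 and 43.4 CPM, a ratio of 1.35 (1.20 to 1.51). That ratio was above 1 but near the median of 1.20 over all genes, at percentile 55.9 of those tested.

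Per UMI total, each of the 4 PRC1 members was higher in low-range stem-like cells than in high-range progenitors. The median ratio over all genes was 1.20. Bmi1, Cbx8, Rnf2 and Cbx7 lay at percentiles 66.4, 68.7, 73.9 and 92.0 of the genes tested. Counted per cell, Cbx7 was higher in the stem-like group, at 0.183 against 0.0863 UMIs. Rnf2 (0.268 against 0.383), Bmi1 (0.228 against 0.405) and Cbx8 (0.0723 against 0.120) were lower there per cell. Cbx7, a chromodomain protein that reads the PRC2 mark and is known from stem cell self-renewal, had the largest ratio of all members at 6.41 (4.99 to 8.22), with 20.9 and 3.26 CPM. Rnf2, the catalytic RING1B subunit, stood at 30.6 and 14.4 CPM, a ratio of 2.12 (1.79 to 2.50). Bmi1, the PCGF partner that stimulates RNF2, stood at 26.0 and 15.3 CPM, a ratio of 1.70 (1.42 to 2.03). Cbx8, an alternative CBX protein, had few counts (51 and 187 UMIs) and stood at 8.25 and 4.55 CPM, a ratio of 1.82 (1.30 to 2.49).

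Without the erythroid-like cells the ratio was 3.77 for Ezh1, 5.54 for Cbx7, 1.61 for Bmi1, 1.42 for Rnf2 and 1.07 for Cbx8. Rnf2 and Cbx8 were then no longer past 1.5-fold. These 2 genes had their lowest level of all gates in erythroid-like cells, at 11.7 CPM for Rnf2 and 2.62 CPM for Cbx8.

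Between the low and high ranges of the stem-like gate the core PRC2 genes differed, and the PRC1 members did not beyond counting error. High-range over low-range stem-like cells gave 3 members at least 1.5-fold higher (Ezh2, Suz12 and Eed), where 12% of 9845 genes were, and 2 at least 1.5-fold lower (Ezh1 and Cbx8), where 14.1% of genes were. The ratio was 1.80 (1.49 to 2.16) for Suz12 and 1.52 (1.12 to 2.03) for Eed. It was 0.722 (0.523 to 0.977) for Jarid2. For Cbx7 the ratio was 0.926 (0.561 to 1.46), for Rnf2 0.862 (0.566 to 1.27), for Bmi1 0.775 (0.478 to 1.20) and for Cbx8 0.639 (0.224 to 1.49). The intervals of the 4 PRC1 members held 1, so no difference was detectable at this depth, and they reached from 0.224 to 1.49. Cbx7 stood at 19.3 CPM (12.1 to 29.3) in high-range stem-like cells, from 22 UMIs, and at 6.67 CPM or less in the high range of the other gates compared. Along the cycle score of the stem-like gate, Cbx7 was not level. It stood at 23.5 CPM (18.8 to 29.0) with 0 to 4 cycle UMIs and at 8.05 CPM (3.48 to 15.9) with 13 to 23. Those intervals did not overlap. Over all settings run, the Cbx7 ratio of high-range over low-range stem-like cells went from 0.415 to 1.12.

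**Figure D5:**
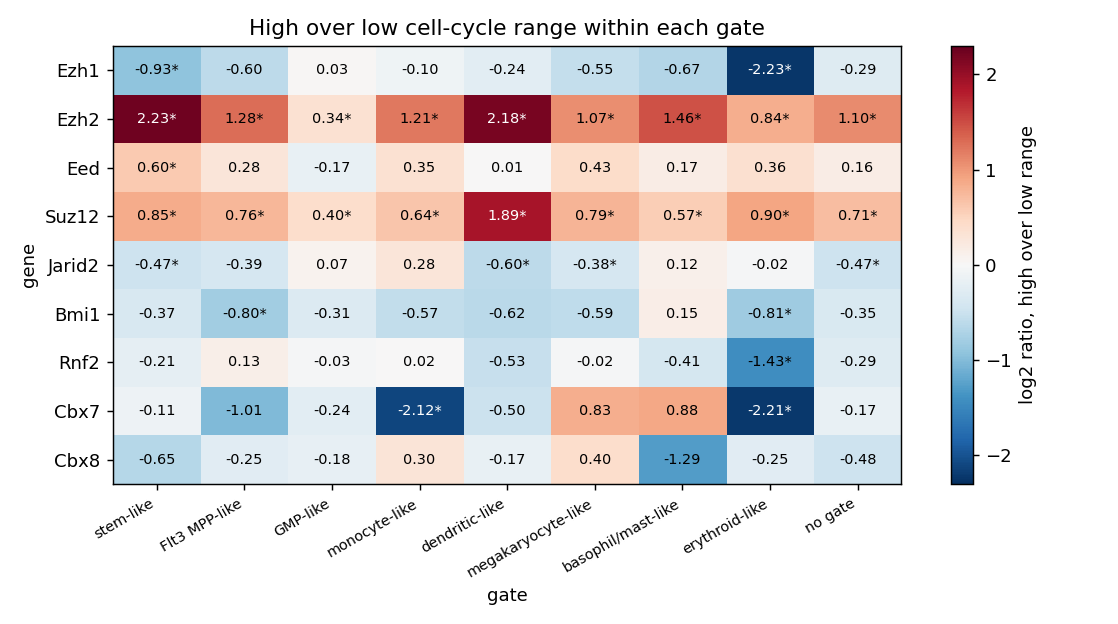
The log2 ratio of CPM in the high over the low cell-cycle range for each member (rows) within each of 9 gates (columns), with a star where the exact 95% interval of the ratio lies off 1. Ezh2 and Suz12 are above 0 with a star in all 9 gates, from 0.34 to 2.23 and from 0.40 to 1.89, and the other members have stars in at most 4.

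The same ratio was taken within each of the 9 gates that had at least 30 cells in both ranges. Ezh2 was above 1 beyond counting error in 9 of 9 gates, from 1.27 in granulocyte-monocyte progenitor-like cells to 4.70 in stem-like cells, with a median of 2.31. The lowest of these ratios turned to 0.957 (0.515 to 1.68) when levels were taken from cells thinned to 5000 UMIs. Suz12 was above 1 in 9 of 9 gates, from 1.32 to 3.71, with a median of 1.69 and its highest ratio in dendritic-like cells. Eed was above 1 in 1 of 9 gates, the stem-like one, and its ratios ran from 0.888 to 1.52. The median ratio of all genes lay between 0.966 and 1.10 in the 9 gates.

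Ezh1 was below 1 beyond counting error in 2 of 9 gates, at 0.523 in stem-like and 0.213 in erythroid-like cells, and its median ratio was 0.683. Jarid2 was below 1 in 4 gates, with ratios from 0.660 to 1.21. Bmi1 was below 1 in 2 gates (Flt3 multipotent progenitor-like and erythroid-like), Cbx7 in 2 (monocyte-like and erythroid-like), Rnf2 in 1 (erythroid-like, 0.370) and Cbx8 in none. In the erythroid-like gate 4 members were therefore lower in cycling cells, but its low range held only 49 cells. All genes there had a median ratio of 0.966, with quartiles of 0.635 and 1.43. How many of all genes were lower beyond counting error was not counted, so the 4 members cannot be set beside genes at large.

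The members also differed between gates, which hold different shares of cycling cells. Jarid2 was highest in megakaryocyte-like cells at 79.9 CPM (74.3 to 85.8), followed by dendritic-like cells at 67.9 CPM, and lowest in neutrophil-like cells at 31.4 CPM. In the low range it reached 106 CPM in megakaryocyte-like and 100.3 CPM in dendritic-like cells, against 58.4 CPM in stem-like cells. Rnf2 was highest in basophil or mast cell-like cells at 40.7 CPM (35.1 to 47.0) and lowest in erythroid-like cells. The T or NK cell-like gate, next at 32.1 CPM, held 54 cells.

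Cbx7 was highest in stem-like cells at 18.6 CPM (15.9 to 21.7) and lowest in neutrophil-like cells at 1.61 CPM (0.696 to 3.18), the widest range of any member at 11.6-fold. Bmi1 stood at 24.9 CPM in stem-like and 23.5 CPM in Flt3 multipotent progenitor-like cells and at 10.5 CPM in neutrophil-like cells. The B lineage-like gate, which held 51 cells and was led by immunoglobulin genes, had 25.3 CPM of Bmi1 (16.2 to 37.7). Eed ranged over 1.96-fold, from 27.4 CPM in neutrophil-like to 53.8 CPM in erythroid-like cells, the narrowest range of any member. Suz12 ranged over 2.05-fold with the same gates at its ends.

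Within PRC1, the genes that can take the same place in the complex were also set as shares of their family. Rnf2 made up 55.4% (49.98 to 60.8) of Rnf2 plus Ring1 in low-range stem-like cells and 38.0% (35.6 to 40.5) in high-range progenitors. Bmi1 held 12.1% and 13.4% of the PCGF family in those groups, with overlapping intervals, and Pcgf5, a subunit of non-canonical PRC1, held 52.9% and 39.1%. In high-range stem-like cells Rnf2 held 53.6% (39.7 to 67.0) of its pair and Pcgf5 56.25% (49.5 to 62.8) of its family. Both intervals overlapped those of low-range stem-like cells.

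Other genes of the pathway were taken from lists written out by complex, and their counts stand beside 39% of all genes at least 1.5-fold higher and 22.5% lower. Of the 6 PRC2 core genes 1 was at least 1.5-fold higher in low-range stem-like cells than in high-range progenitors (Ezh1) and 3 were lower (Ezh2, Suz12 and the histone chaperone Rbbp4 at 0.635). Of the 6 PRC2 accessory genes 4 were higher and 0 lower, led by Phf1 at 4.45 (3.43 to 5.75), Lcor at 1.80 and Aebp2 at 1.60. Of the 8 RING and PCGF genes 4 were higher and 0 lower, among them Pcgf2 at 4.15 and Pcgf5 at 2.54. Among the CBX genes, Cbx6 at 3.69 and Cbx2 at 2.48 were higher, as were Cbx7 and Cbx8. Of the 4 PHC and SCM genes 3 were higher, with Phc1 at 4.79, Phc3 at 2.11 and Scmh1 at 1.84.

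Of the 7 genes of non-canonical PRC1, 2 were higher (Mga at 2.18 and Bcor at 1.61) and 1 was lower (L3mbtl2 at 0.501). Of the 5 enzymes that oppose polycomb, 1 was higher, the H3K27 demethylase gene Kdm6b at 3.87 (3.36 to 4.44). Median ratios were 0.664 for the PRC2 core, 1.56 for the accessory genes, 1.58 for RING and PCGF genes, 1.97 for PHC and SCM genes, 1.33 for non-canonical PRC1 and 1.08 for the opposing enzymes, beside 1.20 over all genes. The CBX list as a whole is not reported here.

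From the low to the high range within the stem-like gate, the lowest ratios among listed genes that are no members were those of Phf1, a PRC2 accessory gene, at 0.105 (0.0126 to 0.391; 103 UMIs in the low range and 2 in the high range), and Kdm6b, at 0.336 (0.203 to 0.528). Among listed genes with at least 50 UMIs in both groups together, Kdm2b, which brings non-canonical PRC1 to CpG islands, was 1.92 times as high. Rbbp4 was 1.73 times, Phc1 1.68 times and Rybp 0.533 times as high. Listed genes with fewer UMIs were left out of this comparison. The Cdkn2a and Cdkn2b genes, classical targets of polycomb silencing, had 1 and 0 UMIs in low-range stem-like cells and 2 and 8 in high-range progenitors, too few for a ratio.

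The genes whose levels were most like those of Ezh1 and Ezh2 were sought over 26 groups of gate and cycle range with at least 50 cells each, among 8178 genes. All groups come from 1 library, differ in depth and share free RNA, so the correlations of log2 CPM are a description. Those nearest to Ezh1 were Crebrf (r = 0.948), Fcho2 (0.921), Etv3 (0.917), Nfat5 (0.911) and Pcmtd1 (0.909). Those nearest to Ezh2 were Rrm1 (0.942), Srsf3 (0.940), Clspn (0.929), Polq (0.927) and Fancd2 (0.925), of which Clspn was 1 of the S phase genes that set the ranges. Cbx7 and Cbx8 had too few UMIs to be among the genes compared. Of the other members, Suz12 had r = 0.868 with Ezh2 and Rnf2 had r = 0.566 with Ezh1, while Ezh1 and Ezh2 had r = -0.42 with each other.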

How the data were processed

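The deposited matrix holds UMI counts per gene and cell barcode, which the authors made by running Cell Ranger 6.0.2 on mm10, from a 10x Chromium 3' v3.1 library, per the study's methods and the file header. The labels describe a bulk RNA kit instead, but whole UMI counts per barcode fit the former. Aligner settings are not given in the sources used here.

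Cells were filtered as in the study (UMIs between 1000 and 50000, genes between 1000 and 6500, and less than 7% mitochondrial UMIs), which kept 7645 of 8817 barcodes and 151852381 UMIs, with a median of 18696 per cell. The Brd9-deleted cells were not analysed here. Lineage gates used 14 marker lists: a cell took the list with the highest log2 ratio of its summed CPM to that of all cells (50 CPM added to both), if the ratio was at least 1 on the log2 scale with at least 3 UMIs from at least 2 markers. No gate was given to 1339 cells (17.5%). Cell-cycle ranges are the lowest and highest 25% of summed S and G2/M UMIs after thinning to 5000 UMIs (seed 1), which left out 99 shallower cells. Scrublet in scanpy 1.11.5 called 265 doublets (3.47%), which were kept and removed in an alternative.

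Levels are CPM, a group's summed counts over its total UMIs times 1000000, given with exact Poisson intervals, shares have Clopper-Pearson intervals and ratios conditional binomial intervals, all at 95% with scipy 1.17.1, and cover counting error only. Ratios over all genes used those with at least 50 UMIs in both groups together. In simulated sums for low-range stem-like cells over high-range progenitors (11928 genes, 200 changed), the interval lay to the correct side of 1 for 95% of changed genes, and 95.9% of intervals held the true ratio. The sums were drawn with Poisson error alone, which the intervals assume, so their coverage was set by design. They do not show how the intervals behave with spread between cells, gate errors or free RNA.

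The members and lists were chosen with earlier results of these data known. Named genes are all members, up to 3 genes per polycomb list past 1.5-fold, and the 5 genes most like Ezh1 and Ezh2. Genes chosen after their values were seen are Cdkn1c, Mki67, Rb1, Kit, Vwf, the Cdkn2 genes and the family alternatives Ring1 and Pcgf5. The result of 1 listed gene is not reported here. Promoter windows are from RefSeq (GRCm38.p6), and all 9 members matched. Alternatives were a stricter cell filter, doublet removal, CPM without mitochondrial, ribosomal protein and haemoglobin UMIs, 4 other cycle gates (unthinned CPM, tertiles, other genes, thinning seed 2), a stricter lineage gate, levels from thinned cells and, added after seeing the data, progenitors without erythroid-like cells.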

Additional observations from a re-analysis of the deposited data

How the results depend on the processing

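Over 541 recomputed values, 497 stayed within the interval or the limit of the reported value, 43 moved and 1 reversed. A ratio was called reversed only if its reported interval lay off 1, so ratios whose interval held 1 could cross 1 uncounted. Among those, the ratio of high-range over low-range stem-like cells ran from 0.749 to 1.12 for Rnf2 and from 0.415 to 1.12 for Cbx7. With at least 5000 UMIs per cell and under 5% mitochondrial UMIs, the Ezh1 share of low-range stem-like cells moved from 51.9% to 39.9%. Gates and cycle ranges were set anew on the cells kept. The low-range stem-like group then held 457 cells against 705, and the high-range one 82 against 67. Over the other alternatives the Ezh1 share of low-range stem-like cells ran from 49.0% to 55.8%. Without erythroid-like cells the Ezh1 share of high-range progenitors moved from 3.56% to 5.79%, and the members at least 1.5-fold higher in low-range stem-like cells went from 5 to 3. The Ezh2 ratio of high over low range in granulocyte-monocyte progenitor-like cells reversed to 0.957 with levels from thinned cells. In those 3 cases fewer cells or fewer UMIs were used, and under the stricter cell filter the ranges were also set anew. The cause was not tested. The Ezh1 share of high-range stem-like cells ran from 8.97% to 14.3%, and 2 members were at least 1.5-fold lower under every alternative run. Without mitochondrial, ribosomal protein and haemoglobin UMIs the median ratio of all genes was 1.26 against 1.20, and no member's ratio of low-range stem-like cells to high-range progenitors changed its side of 1. No paired analysis was possible because there was 1 library. With 1 library, no value shows how far another mouse or sort would differ. Counts were low for Cbx7 and Cbx8, and some ranges held few cells (39 to 67 in 4 of those compared).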
